A study of Homo sapiens with 18 samples.

Results

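The 7 genes SOCS1, SOCS2, SOCS3 and CISH of the suppressor of cytokine signalling family, and the protein tyrosine phosphatases PTPN1, PTPN2 and PTPN6, restrain cytokine signalling and were followed in human lymphoma cell lines. They were taken by symbol, each as its brightest probe set (the group of probes that reads 1 transcript) annotated to that single symbol, and they are 7 of 18417 genes measured. Each had exactly 1 such probe set. Total RNA of 18 samples in 6 groups of 3 had been hybridised to Affymetrix whole-transcript arrays. L428-PAX5+MAT and L428-PAX5+M are groups of L428-PAX5, a derivative of the classical Hodgkin lymphoma line L428 in which mifepristone induces PAX5, the master regulator of B-cell identity. L428+MAT and L428+M are the parental L428. Raji and Namalwa are Burkitt lymphoma lines. The +M groups had 0.25 nM mifepristone for 5 days. The +MAT groups had mifepristone for 2 days and then 5-aza-2′-deoxycytidine (5-aza-dC, 3 µM), an inhibitor of DNA methylation, for 3 days, with trichostatin A (TSA, 640 nM), an inhibitor of histone deacetylases, in the last 24 h; this pair is called the drugs below. Raji and Namalwa were untreated, so their line and mifepristone cannot be told apart when they are set against L428. The medium of L428-PAX5 alone held HEPES, and uninduced L428-PAX5 is not analysed here, so PAX5, the derived line and its medium cannot be told apart either. The sample titles of L428-PAX5+MAT read L425-PAX5, in conflict with the cell line given as L428-PAX5, which was used.

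Cytokine receptors activate JAK kinases, which phosphorylate the receptor and STAT transcription factors. SOCS proteins are made in answer to STATs and close a feedback loop: SOCS1 and SOCS3 block JAK kinases directly, while CISH and SOCS2 occupy phosphorylated receptor sites and recruit ubiquitin ligases. The phosphatases remove the phosphates, PTPN1 (PTP1B) and PTPN2 (TC-PTP) from JAKs and STATs and PTPN6 (SHP-1) at receptors of blood cells. JAK and STAT signalling is active in classical Hodgkin lymphoma, where SOCS1 and PTPN1 are recurrently mutated.

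The promoter windows of SOCS1 and CISH are shown because their levels ran more alike than those of any other pair of SOCS genes, and because 5-aza-dC acts on DNA methylation. Each window is the 250 bases before the RefSeq start site (GRCh38.p14), written 5′ to 3′ on the gene's strand. Capitals mark TTCNNNGAA, the palindrome that STATs bind, or GAAANNGAAA, a motif of interferon-responsive genes. Both strands were searched, and TTCNNNNGAA, the wider spacing read by STAT6, was searched too; no matches overlapped. The CISH window is chr3:50611775-50612024 on the minus strand and the SOCS1 window is chr16:11256205-11256454 on the minus strand.
CISH: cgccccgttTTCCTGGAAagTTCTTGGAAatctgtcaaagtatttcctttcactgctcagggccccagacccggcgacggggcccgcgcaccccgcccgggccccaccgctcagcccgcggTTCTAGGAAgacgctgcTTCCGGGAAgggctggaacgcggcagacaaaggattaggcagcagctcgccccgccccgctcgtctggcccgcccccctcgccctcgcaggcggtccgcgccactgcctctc
SOCS1: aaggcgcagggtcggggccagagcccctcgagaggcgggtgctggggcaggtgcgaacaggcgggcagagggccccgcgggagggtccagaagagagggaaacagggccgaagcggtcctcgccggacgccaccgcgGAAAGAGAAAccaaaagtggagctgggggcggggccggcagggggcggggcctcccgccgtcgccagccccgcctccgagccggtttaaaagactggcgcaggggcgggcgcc
CISH held 4 matches to TTCNNNGAA, which read TTCCTGGAA, TTCTTGGAA, TTCTAGGAA and TTCCGGGAA and began 241, 230, 129 and 112 bases before the start site. Among 35116 promoter windows of this length, 6.57% held at least 1 match and 10 windows (0.028%) held at least 3. SOCS1 held 1 match, GAAAGAGAAA, to GAAANNGAAA, which 3.02% of windows contain. The windows of SOCS3, PTPN1, PTPN2 and PTPN6 held none of these letters, and 6 of the 7 members had a window. CG dinucleotides, the sites of DNA methylation, numbered 26 in the CISH window and 27 in that of SOCS1, against a median of 11 over all windows. Fewer were held by 80.4% and 82.3% of all windows. Among the other members, PTPN1 held 29, the windows of SOCS3 13 and 30, the PTPN2 window 1 and the windows of PTPN6 10 and 8. These counts hold only for the windows searched, and any other start sites of these genes were not searched.

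Changes below are differences of group means on the log2 scale, on which all levels are given too, with their standard error (SE) from limma. Each p was adjusted over all 18417 genes of its comparison and passed below 0.05. Replicate numbers paired the arrays within a lineage, and a value with the number as a block within each lineage is added where it changed a call and in some other places. PAX5 itself was brighter on every L428-PAX5 array, 12.67 to 12.85, than on any L428 array, 6.70 to 8.64. The highest L428 value was that of L428+M replicate 1, and PAX5 lay between 10.77 and 11.31 in Raji and Namalwa. Of 5 B-cell markers measured, the mean level was 5.83 in L428-PAX5+MAT, 5.61 in L428-PAX5+M, 5.73 in L428+MAT, 11.49 in Raji, 9.90 in Namalwa and, lastly, 5.66 in L428+M. MS4A1 (CD20), a defining B-cell marker, stood at only 6.13 in Namalwa, below the median of all values, against 12.03 in Raji. The mean of 5 Hodgkin markers ran the other way, with 9.60, 10.54, 10.85, 6.99, 6.58 and 10.70 in that order. T and NK cell markers averaged 5.51 to 5.68 in every group. Among 6 myeloid markers, which averaged 5.85 to 6.97, CSF1R reached 9.84 in L428-PAX5+MAT and 9.13 in L428-PAX5+M, against 6.72 in L428+MAT and 6.45 in L428+M, and CD68 lay at 9.25 to 10.17 in the L428 groups. The defining markers CD14, LYZ, MPO and ITGAM stayed below the median of all values in every group, and the part of the CSF1R and CD68 shifts in the results was not tested.

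**Figure D1:**
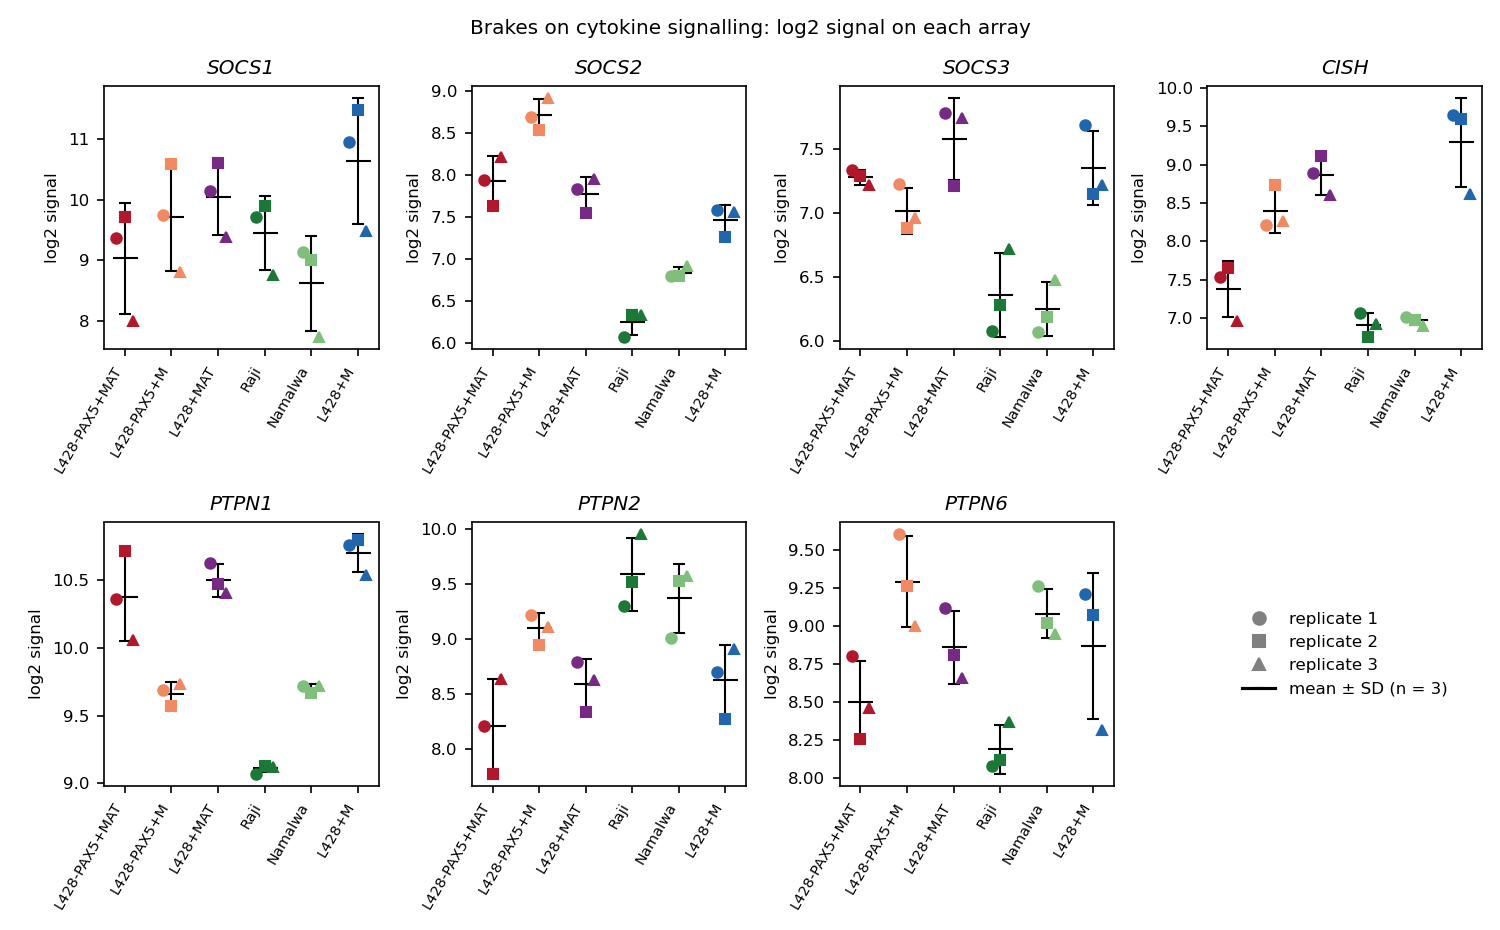
Log2 signal of the 7 genes on each of the 18 arrays (vertical axis), by group (horizontal axis). Points are arrays, shaped by replicate number, with bars for the mean ± SD (n = 3). CISH, SOCS3 and PTPN1 are lower in Raji and Namalwa than in L428+M with no overlap, PTPN2 is higher, and replicate 3 of SOCS1 is the lowest of its group in 6 of 6 groups.

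CISH, a feedback gene induced by STAT5, had the widest separation between the Hodgkin and Burkitt lines of the 7 genes. Its levels were 7.53, 7.65 and 6.96 in L428-PAX5+MAT, 8.21, 8.74 and 8.26 in L428-PAX5+M, 8.89, 9.11 and 8.60 in L428+MAT, 7.07, 6.75 and 6.92 in Raji, 7.02, 6.98 and 6.89 in Namalwa, against 9.65, 9.60 and 8.62 in L428+M. All arrays of both Burkitt lines lay below every array of L428+M, while L428-PAX5+MAT overlapped the Burkitt range only through its replicate 3. In RNA of whole cultures, fewer cells with a transcript and less of it per cell cannot be told apart. CISH was 5.10-fold lower in the mean of Raji and Namalwa than in L428+M (log2 change -2.35 ± 0.21 SE, adjusted p = 2.17e-08). In L428-PAX5+MAT it fell by 1.02 against L428-PAX5+M (SE 0.24, adjusted p = 0.00266) and was 2.80-fold lower than in L428+MAT (log2 change -1.48, SE 0.24, adjusted p = 9.24e-05), with no overlap of arrays in either case. L428-PAX5+M was lower than L428+M by less (log2 change -0.89 ± 0.24 SE, adjusted p = 0.0147, and with the block 4.01e-04), and replicate 3 of L428+M lay inside the L428-PAX5+M range. Without the block, that call was lost when L428+M replicate 1 (adjusted p = 0.0824), L428+M replicate 2 (0.0852), L428-PAX5+M replicate 1 (0.0675) or L428-PAX5+M replicate 3 (0.0562) was left out, and in a fit of these groups alone (0.0645). It was also lost without every replicate 1 (-0.61, adjusted p = 0.368) or every replicate 2 (-0.9, adjusted p = 0.107). Under the drugs in parental L428 CISH did not pass (-0.43 ± 0.24, adjusted p = 0.445, and with the block 0.0974), except without L428+M replicate 3 (-0.76 ± 0.21, adjusted p = 0.0431). Its change under the drugs in L428-PAX5 was not shown to differ from that in L428 (difference -0.60, 95% interval -1.31 to 0.12, adjusted p = 0.272, and with the block 0.0512).

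SOCS1, the direct inhibitor of JAK kinases, varied more between arrays of 1 group than 99.9% of genes, and most of that variation followed the replicate number. It measured 9.37, 9.72 and 7.99 in L428-PAX5+MAT, 9.75, 10.59 and 8.81 in L428-PAX5+M, 10.14, 10.60 and 9.38 in L428+MAT, 9.71, 9.90 and 8.75 in Raji, 9.13, 9.00 and 7.73 in Namalwa, against 10.96, 11.48 and 9.48 in L428+M. Replicate 3 was the lowest in 6 of 6 groups and replicate 2 the highest in 5. Replicate numbers accounted for 93.3% of its variance within groups, against a median of 34.6% over all genes, and its within-group SD was 0.82 against a median of 0.21. Compared number by number, SOCS1 was lower in 3 of 3 pairs in each comparison of L428 groups. L428-PAX5+MAT minus L428+MAT gave -0.77, -0.88 and -1.39, and L428-PAX5+M minus L428+M gave -1.21, -0.89 and -0.67.

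**Figure D2:**
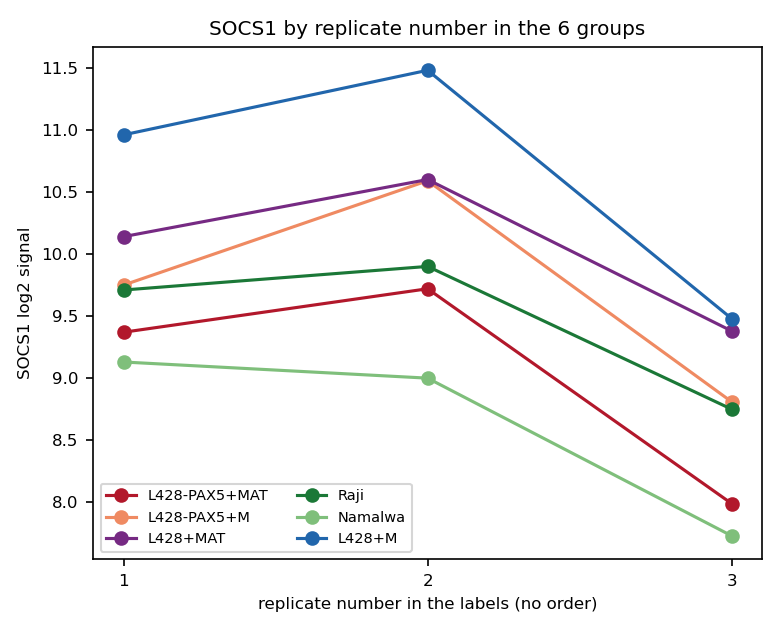
SOCS1 log2 signal (vertical axis) on the 18 arrays by the replicate number in the labels (horizontal axis); lines join the arrays of 1 group and carry no order. Replicate 3 is the lowest of its group in 6 of 6 groups, and L428+M lies above the other L428 groups at every number.

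Without regard to the number, none of the SOCS1 changes among the L428 groups passed, and with the number as a block within each lineage all 4 did. L428-PAX5+M was lower than L428+M by 0.92 on the log2 scale (log2 change -0.92 ± 0.56 SE, adjusted p = 0.331, and with the block SE 0.15, adjusted p = 2.60e-04). L428-PAX5+MAT differed from L428+MAT by -1.01 (adjusted p = 0.192, and with the block 5.02e-05) and from L428-PAX5+M by -0.69 (adjusted p = 0.394, and with the block 0.00142). In L428 the drugs changed it by -0.60 (adjusted p = 0.692, and with the block 0.0188), where the pair of number 3 differed by only -0.10. The difference between the changes under the drugs in L428-PAX5 and in L428 was -0.09, with a wide 95% interval of -1.74 to 1.56 (adjusted p = 0.961, and with the block 0.799). Leaving out every replicate 3, an alternative chosen after seeing the data, gave a passing SOCS1 change without a block in L428-PAX5+M against L428+M (-1.05 ± 0.26, adjusted p = 0.0161) and in drug-treated L428-PAX5 against drug-treated L428 (-0.82 ± 0.26, adjusted p = 0.0278). SOCS1 was 4.06-fold lower in Namalwa than in L428+M (log2 change -2.02 ± 0.56, adjusted p = 0.00739), which no longer passed without L428+M replicate 2 (0.0516) or Namalwa replicate 3 (0.0522). That call was also lost without every replicate 1 (-2.12, adjusted p = 0.0866) or every replicate 2 (-1.79, adjusted p = 0.0543). The change in Raji against L428+M was -1.19 ± 0.56 and did not pass (adjusted p = 0.125), with differences of -1.26, -1.58 and -0.73 number by number. It passed without L428+M replicate 3 (-1.77 ± 0.56, adjusted p = 0.022) and without every replicate 3 (-1.42 ± 0.26, adjusted p = 0.00112). Blocks gave adjusted p of 6.85e-06 within each lineage and 1.39e-05 as 1 block over all arrays. The numbers were taken to pair arrays only within a lineage, so these block values do not decide the comparison of Raji with L428+M.

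SOCS2, which restrains growth hormone and related receptors, was brightest in L428-PAX5+M and dimmest in Raji. It measured 7.94, 7.63 and 8.22 in L428-PAX5+MAT, 8.69, 8.54 and 8.92 in L428-PAX5+M, 7.83, 7.55 and 7.95 in L428+MAT, 6.07, 6.34 and 6.33 in Raji, 6.80, 6.80 and 6.92 in Namalwa, against 7.59, 7.26 and 7.56 in L428+M. L428-PAX5+M stood above every other array of the study, L428+MAT overlapped both L428-PAX5+MAT and L428+M, and Raji stood below all others. SOCS2 averaged 8.72 in L428-PAX5+M, 2.38-fold above L428+M at 7.47 (log2 change 1.25 ± 0.16 SE, adjusted p = 2.16e-05) and fell by 0.79 in L428-PAX5+MAT against L428-PAX5+M (SE 0.16, adjusted p = 9.29e-04). In L428 the drugs gave 0.31 ± 0.16 (adjusted p = 0.407), and the difference between the responses of both lines passed (-1.09 ± 0.23, adjusted p = 0.00334). With the drugs in both lines, L428-PAX5 and L428 differed by 0.16 (95% interval -0.18 to 0.50). Raji was lower than Namalwa by 0.59 on the log2 scale (log2 change -0.59 ± 0.16, adjusted p = 0.0124), a call lost with array medians subtracted (0.0713), after quantile normalization (0.0544), and without Namalwa replicate 3 (0.0503), Raji replicate 1 (0.071) or every replicate 1 (0.244).

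SOCS3, the inhibitor of signalling by the IL-6 receptor family, separated the lineages but no pair of L428 groups. It measured 7.34, 7.29 and 7.22 in L428-PAX5+MAT, 7.23, 6.88 and 6.96 in L428-PAX5+M, 7.78, 7.21 and 7.74 in L428+MAT, 6.08, 6.28 and 6.72 in Raji, 6.07, 6.19 and 6.48 in Namalwa, against 7.69, 7.15 and 7.22 in L428+M. All 4 L428 groups lay above every Burkitt array, and neighbouring L428 groups in the order of means overlapped. SOCS3 was near the median of all values (6.62), with 13 of 18 arrays above it, and changes of dim signals are understated on such arrays. In the mean of Raji and Namalwa it was 2.07-fold lower than in L428+M (log2 change -1.05 ± 0.17, adjusted p = 4.22e-05). Among L428 groups its changes lay between -0.33 and 0.26 with adjusted p of 0.287 to 0.659 (0.0716 to 0.314 with the block).

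PTPN1, the phosphatase that acts on JAK2 and TYK2, was lower in L428-PAX5+M and in both Burkitt lines than in L428+M. Its levels were 10.36, 10.72 and 10.06 in L428-PAX5+MAT, 9.69, 9.57 and 9.73 in L428-PAX5+M, 10.63, 10.47 and 10.41 in L428+MAT, 9.07, 9.13 and 9.12 in Raji, 9.72, 9.67 and 9.72 in Namalwa, against 10.76, 10.80 and 10.54 in L428+M. L428-PAX5+M overlapped Namalwa, and both lay below every array of L428-PAX5+MAT, L428+MAT and L428+M. PTPN1 averaged 9.66 in L428-PAX5+M, 2.05-fold below L428+M at 10.70 (log2 change -1.04 ± 0.14, adjusted p = 4.69e-05) and rose by 0.72 in L428-PAX5+MAT against L428-PAX5+M (SE 0.14, adjusted p = 7.50e-04). The call of that rise was lost without every replicate 2 (0.5, adjusted p = 0.0809). In L428 the drugs gave -0.20 ± 0.14 (adjusted p = 0.589), and the difference between the responses passed (0.92 ± 0.20, adjusted p = 0.00511). With the drugs in both lines L428-PAX5 differed from L428 by -0.12 (95% interval -0.42 to 0.18), a difference whose sign turned after quantile normalization (0.10). PTPN1 was 3.02-fold lower in Raji and 2.00-fold lower in Namalwa than in L428+M (adjusted p = 3.42e-08 and 1.52e-05), and lower in Raji than in Namalwa (log2 change -0.60 ± 0.14, adjusted p = 0.00513). The call between Raji and Namalwa was lost without every replicate 1 (-0.57, adjusted p = 0.146).

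PTPN2, the close relative of PTPN1 that also acts on JAK1, JAK3 and nuclear STATs, was the 1 member higher in the Burkitt lines. It measured 8.21, 7.78 and 8.64 in L428-PAX5+MAT, 9.22, 8.95 and 9.11 in L428-PAX5+M, 8.79, 8.34 and 8.63 in L428+MAT, 9.30, 9.52 and 9.95 in Raji, 9.01, 9.53 and 9.57 in Namalwa, against 8.70, 8.28 and 8.91 in L428+M. Every Burkitt array lay above every L428+M array, and L428-PAX5+M overlapped Namalwa. In the mean of Raji and Namalwa it was 1.80-fold higher than in L428+M (log2 change 0.85 ± 0.20, adjusted p = 0.00182), a call lost without every replicate 2 (0.65, adjusted p = 0.0503). The Namalwa change alone (0.74 ± 0.23, adjusted p = 0.0156) lost its call without L428+M replicate 2 (0.56, adjusted p = 0.0959), Namalwa replicate 2 (0.65; 0.0664) or Namalwa replicate 3 (0.64; 0.0691), and without every replicate 2 it was 0.48 (0.233). PTPN2 fell by 0.89 in L428-PAX5+MAT against L428-PAX5+M (SE 0.23, adjusted p = 0.00512), with no overlap. That call was lost without every replicate 1 (-0.82, adjusted p = 0.0732) or every replicate 2 (-0.74, adjusted p = 0.0737). The drugs gave -0.04 ± 0.23 in L428 (adjusted p = 0.964), and the difference between the lines did not pass without the block (-0.84, adjusted p = 0.0836) and passed with it (0.00432), without L428-PAX5+MAT replicate 3 (-1.06, adjusted p = 0.0212) and without every replicate 3 (-1.17, adjusted p = 0.0234). L428-PAX5+M against L428+M gave 0.46 (adjusted p = 0.205, and with the block 0.0192), and L428-PAX5+MAT against L428+MAT gave -0.38 (adjusted p = 0.237, and with the block 0.0346).

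PTPN6, the SH2-domain phosphatase of blood cells, was the 1 member with the means of the Burkitt lines on either side of L428+M. It measured 8.80, 8.26 and 8.46 in L428-PAX5+MAT, 9.60, 9.26 and 9.00 in L428-PAX5+M, 9.12, 8.81 and 8.66 in L428+MAT, 8.08, 8.12 and 8.37 in Raji, 9.26, 9.02 and 8.95 in Namalwa, against 9.21, 9.07 and 8.32 in L428+M. Raji lay below every Namalwa array, and L428+M overlapped Raji through its low replicate 3 and Namalwa through replicates 1 and 2. PTPN6 was lower in Raji than in Namalwa by 0.89 on the log2 scale (log2 change -0.89 ± 0.21, adjusted p = 0.00532). That call was lost without every replicate 1 (-0.74, adjusted p = 0.0777) or every replicate 2 (-0.88, adjusted p = 0.104). Raji against L428+M gave -0.68 ± 0.21 (adjusted p = 0.0202), which no longer passed without L428+M replicate 1 (-0.50, adjusted p = 0.12), L428+M replicate 2 (-0.58, 0.089), Raji replicate 1 (-0.62, 0.0732) or Raji replicate 2 (-0.64, 0.0648). The call was also lost without every replicate 1 (-0.45, adjusted p = 0.24) or every replicate 2 (-0.54, adjusted p = 0.275), and the change was -1.04 without every replicate 3. Namalwa against L428+M gave 0.21 ± 0.21 (adjusted p = 0.559). In L428-PAX5+MAT PTPN6 fell by 0.78 against L428-PAX5+M (SE 0.21, adjusted p = 0.00821), with no overlap. That call was lost without L428-PAX5+M replicate 1 (-0.63, adjusted p = 0.0549) or without every replicate 2 (-0.67, adjusted p = 0.175). Its response to the drugs differed between the lines with the block (-0.78, adjusted p = 0.0921, and with the block 0.0125) and without L428+M replicate 1 (-0.95, adjusted p = 0.0447).

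**Figure D3:**
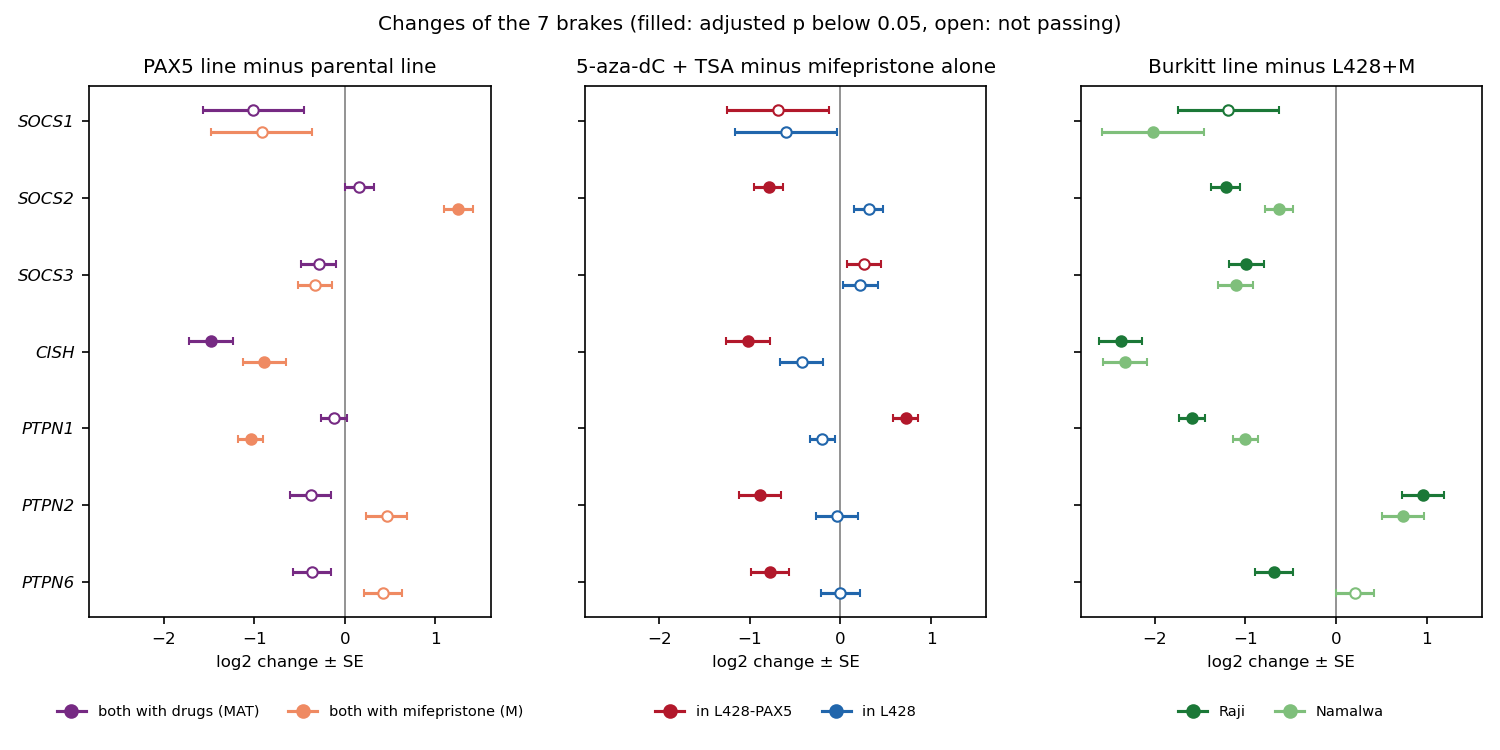
Log2 changes ± SE (horizontal axis) of the 7 genes (vertical axis), for L428-PAX5 minus L428 (left), 5-aza-dC and TSA minus mifepristone alone (middle) and each Burkitt line minus L428+M (right); filled points passed the test without a block. The change in L428-PAX5+M (left) and that under the drugs in L428-PAX5 (middle) point opposite ways for SOCS2, SOCS3, PTPN1, PTPN2 and PTPN6. Of these, SOCS2 and PTPN1 passed in both. The L428-PAX5+M arrays enter both changes with opposite sign, which favours opposite directions. Under the drugs 5 genes passed in L428-PAX5 and none in L428, where 33.7% and 4.84% of all genes passed. The difference between the lines passed for 2 of the 7 genes.

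Read against all 18417 genes, the members stood as follows. In L428-PAX5+M against L428+M, 3 of 7 passed (SOCS2 higher, CISH and PTPN1 lower), where 16.3% of all genes passed, 9.72% upward and 6.55% downward, and with the block 5 of 7 passed, against 25.5% of all genes. In L428-PAX5+MAT against L428-PAX5+M, 5 of 7 passed, 1 higher and 4 lower, where 33.7% of all genes passed, 14.2% higher and 19.4% lower (6 of 7 with the block, against 43.6%). In L428+MAT against L428+M, 0 of 7 passed in limma and 0 of 7 had an unadjusted p under 0.05, where 4.84% of all genes passed, 4.21% higher and 0.635% lower, and with the block only SOCS1 passed, against 9.76% of all genes. In L428-PAX5+MAT against L428+MAT, CISH alone passed, where 32.0% of all genes did, 14.3% higher and 17.7% lower, and with the block SOCS1, CISH and PTPN2 passed, against 41.5%. A share of 1 in 7 there is below that of all genes.

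For the difference between the responses of both lines, 2 of 7 members passed, against 16.2% of all genes (4 of 7 and 27.9% with the block). In the mean of Raji and Namalwa against L428+M, 6 of 7 passed, 5 lower and 1 higher, where 35.4% of all genes passed, 16.7% lower and 18.7% higher. The median change of the 7 genes was -1.05 there and 0.03 over all genes. SOCS1 (-1.60 ± 0.48, adjusted p = 0.0127) left that count without L428+M replicate 1 (adjusted p = 0.0623) or L428+M replicate 2 (0.111), and PTPN6 joined it without L428+M replicate 3 (-0.51, adjusted p = 0.0352). SOCS1 also left it without every replicate 1 (0.122) or every replicate 2 (0.0806). PTPN2 left it without every replicate 2 (0.0503), and PTPN6 joined it without every replicate 3 (-0.52, adjusted p = 0.0263). Raji alone gave 6 of 7 against 31.2% of all genes, Namalwa 6 of 7 against 33.9%, and Raji against Namalwa 3 of 7 against 19.2% (4 of 7 against 27.1% with the block, which added SOCS1 at 0.83, adjusted p = 4.48e-04). These comparisons share arrays: L428+M enters 6 of them and L428-PAX5+M is in both the PAX5 and the drug comparison, so a high or low value there moves both.

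Among themselves over the 18 arrays, the members followed no common pattern; arrays of 1 group share their line and treatment, and same-numbered arrays deviate together. PTPN1 and PTPN2 ran most opposed (Pearson r = -0.82, n = 18), PTPN1 and SOCS3 most alike (0.78), and SOCS1 and CISH next (0.76). CISH also ran with SOCS3 (0.71) and PTPN1 (0.70), while SOCS1 ran less closely with SOCS3 (0.33) and PTPN1 (0.42). PTPN2 had a negative r with each of the others, from -0.82 to -0.02. PTPN6 was within 0.50 of 0 with each of the others.

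The gene most like CISH among 7426 genes whose group means spanned at least 1 log2 unit was TNFRSF8, which encodes CD30, the marker of Hodgkin cells (r = 0.969 over 18 arrays). TNFRSF8 averaged 7.98 in L428-PAX5+MAT, 9.21 in L428-PAX5+M, 10.02 in L428+MAT, 7.69 in Raji and 7.53 in Namalwa, against 9.88 in L428+M. MVP (0.968) and CERCAM (0.957) followed. The order of the groups is that of CISH except that L428+MAT stood above L428+M and Raji above Namalwa.

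**Figure D4:**
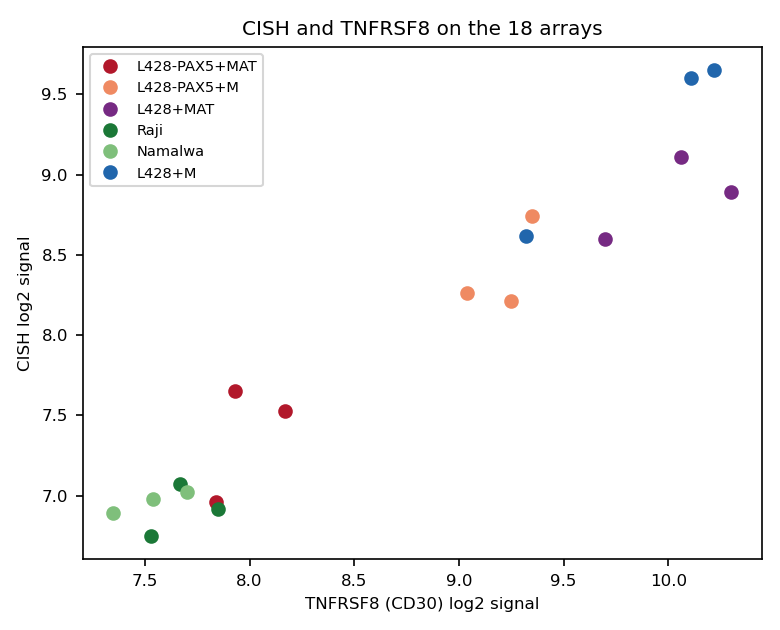
CISH (vertical axis) against TNFRSF8 (horizontal axis), both as log2 signal, on the 18 arrays coloured by group. The arrays of Raji, Namalwa and replicate 3 of L428-PAX5+MAT sit at the low end of both genes, L428-PAX5+M in the middle, and L428+MAT and L428+M at the high end, with replicate 3 of L428+M beside L428-PAX5+M.

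By the same measure, the closest genes were ZNF605 (r = 0.967), DYNC1LI2 and ZNF180 for SOCS2, ELMOD1 (0.952), HOXB13 and FLVCR2 for SOCS3, and ATF2 (0.952), PKIA and ATRNL1 for PTPN1. GID8 (0.959), CUL5 and MED4 came closest to PTPN2, and THRA (0.908), SLC25A43 and LIMD1 to PTPN6. SOCS1 had the weakest best match, NRM (0.885), before TAPBP and GGTLC2, a gene of a family with near-identical copies.

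The machinery that these brakes act on changed as well, and medians of the lists below compare with a median over all genes of -0.04 to 0.05 in each comparison. Counts on the lists are to be read against the shares of all genes that passed, 16.3% in L428-PAX5+M against L428+M, 4.84% in L428+MAT against L428+M, 33.7% in L428-PAX5+MAT against L428-PAX5+M, 32.0% between the drug-treated lines and 35.4% in the mean of Raji and Namalwa against L428+M. Of 9 JAK and STAT genes measured, 7 were lower and 0 higher in L428-PAX5+MAT than in L428+MAT, with a median change of -1.40. STAT5A, an activator of CISH, averaged 9.05 in L428-PAX5+MAT and 11.23 in L428+MAT (-2.18 ± 0.18, adjusted p = 5.80e-08); it shares near-identical sequence with STAT5B, and their signals may mix. STAT6, which relays IL-4 and IL-13, averaged 8.87 and 10.71 in the same groups (-1.84 ± 0.18, adjusted p = 4.41e-07). Against L428-PAX5+M, 5 of the 9 were lower and STAT4, which relays IL-12, was higher (0.83 ± 0.16, adjusted p = 4.23e-04). In L428+MAT against L428+M, STAT5A alone passed and was higher (0.69 ± 0.18, adjusted p = 0.0314), and the change of STAT5A under the drugs differed between the lines by -2.35 ± 0.26 (adjusted p = 1.82e-05). In L428-PAX5+M against L428+M, STAT4 (-2.71 ± 0.16) and STAT5B (-0.50 ± 0.15) were the 2 lower genes (adjusted p = 1.17e-09 and 0.0281). In the mean of Raji and Namalwa 7 of 9 were lower than in L428+M and JAK1 was higher (0.49 ± 0.10, adjusted p = 8.36e-04), with a median of -1.25. STAT4 (-5.69) and STAT5A (-3.98) had the largest falls. By the same test of each line alone, JAK1 passed in Namalwa (0.69 ± 0.12, adjusted p = 1.37e-04) and not in Raji.

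**Figure D5:**
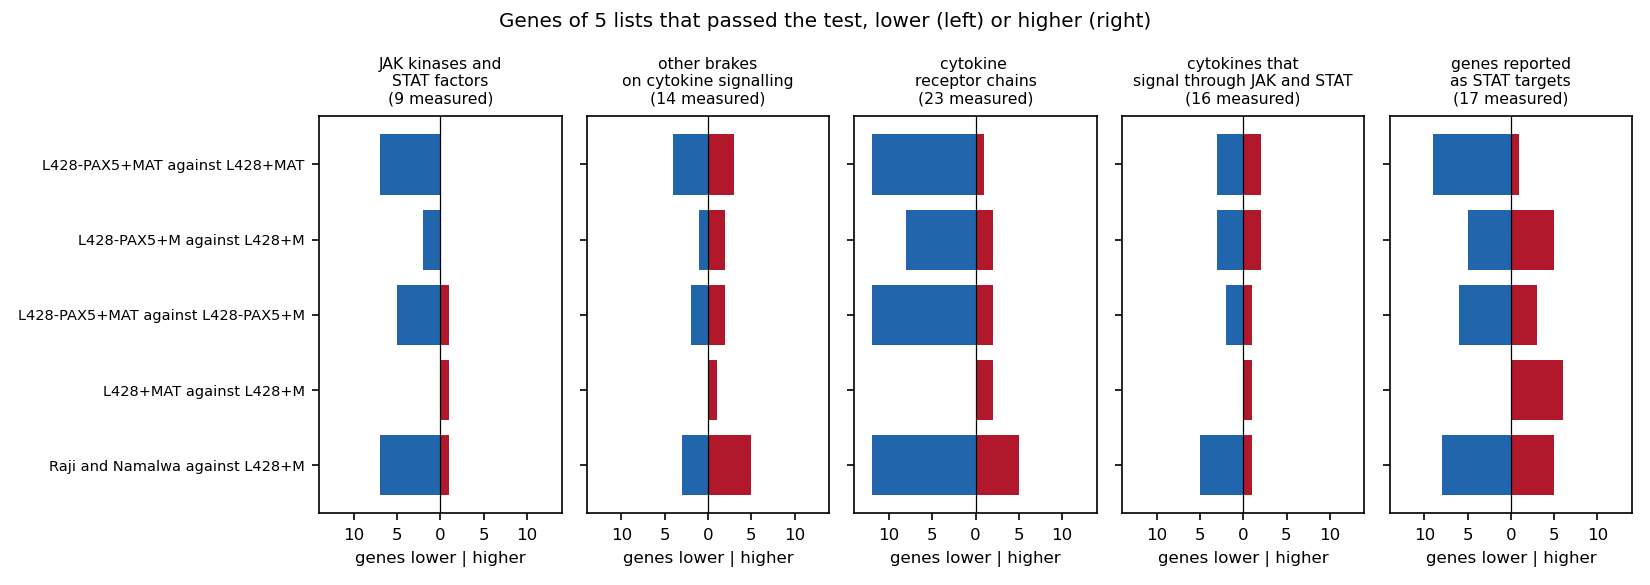
Number of genes of 5 lists that passed the test, lower (left of 0) or higher (right of 0), in 5 comparisons (rows). JAK and STAT genes and receptor chains are mostly lower in L428-PAX5+MAT set beside L428+MAT and in the Burkitt lines. In L428+MAT against L428+M no gene of any of the 5 lists is lower, where only 0.635% of all genes are. With the block within lineage, 1 receptor chain and 1 cytokine are lower there.

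Of 14 other brakes measured, 3 were higher and 4 lower in L428-PAX5+MAT than in L428+MAT (median -0.07), and 5 were higher and 3 lower in the mean of the Burkitt lines than in L428+M (median 0.27). PTPRC, which encodes CD45, the phosphatase of all white blood cells that also acts on JAKs, averaged 4.22 in L428-PAX5+M and 7.40 in L428+M (-3.18 ± 0.15, adjusted p = 1.70e-10), and 10.34 in the mean of Raji and Namalwa (2.94 ± 0.13 against L428+M, adjusted p = 1.22e-12). USP18, an interferon-induced brake on the type I interferon receptor, was higher in L428+MAT than in L428+M (1.31 ± 0.33, adjusted p = 0.0236) and lower in L428-PAX5+MAT than in L428+MAT (-1.14 ± 0.33, adjusted p = 0.0108). PTPN11 (SHP2), the relative of PTPN6 that mostly promotes signalling, rose in L428-PAX5+M over L428+M (0.91 ± 0.17, adjusted p = 9.46e-04), and PIAS2, an inhibitor of STATs, also rose (1.18 ± 0.14, adjusted p = 9.67e-06). Both fell in L428-PAX5+MAT against L428-PAX5+M (PTPN11 -0.69 ± 0.17, adjusted p = 0.0047; PIAS2 -0.50 ± 0.14, adjusted p = 0.0102), calls that quantile normalization ended.

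Among 23 receptor chains, 12 were lower and 1 higher in L428-PAX5+MAT than in L428+MAT (median -0.83), 8 lower and 2 higher in L428-PAX5+M set beside L428+M (median -0.19), and 12 lower and 5 higher in the Burkitt mean than in L428+M (median -0.55). IL2RB, a chain of the IL-2 and IL-15 receptors, averaged 7.72 in L428-PAX5+M and 10.11 in L428+M (-2.38 ± 0.23, adjusted p = 6.12e-07). IL5RA, the IL-5 receptor chain, averaged 8.42 in L428-PAX5+MAT and 11.26 in L428+MAT (-2.84 ± 0.28, adjusted p = 4.96e-07). IL13RA1, the IL-13 receptor chain, averaged 4.58 in the Burkitt mean and 11.55 in L428+M (-6.97 ± 0.18, adjusted p = 5.29e-16). IL10RA rose in L428-PAX5+M against L428+M (1.31 ± 0.18, adjusted p = 4.58e-05), and IL6ST, the chain shared by IL-6 type receptors on which SOCS3 acts, rose under the drugs in L428 (1.02 ± 0.22, adjusted p = 0.00689) and in L428-PAX5 (0.90 ± 0.22, adjusted p = 0.003).

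Of 16 cytokines, 2 were higher and 3 lower in L428-PAX5+M set beside L428+M (median -0.03). IL31 averaged 10.24 in L428-PAX5+M and 5.62 in L428+M (4.62 ± 0.29, adjusted p = 4.84e-09), and in L428-PAX5+MAT it averaged 6.22, lower than in L428-PAX5+M (-4.02 ± 0.29, adjusted p = 1.88e-08). IL6 fell to 6.68 in L428-PAX5+MAT, against 9.35 in L428+MAT (-2.67 ± 0.23, adjusted p = 8.38e-08). In the Burkitt mean 5 cytokines were lower and 1 higher than in L428+M (median -0.08), IL5 (-4.13) and IL6 (-3.33) among the lower and IL10 (0.83) the higher one. These 6 of 16 are a share close to the 35.4% of all genes. IL10 averaged 7.61 in Raji and 5.23 in Namalwa, against 5.59 in L428+M, so its rise in the mean came from Raji alone.

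Of 17 genes reported as STAT targets, 6 were higher and 0 lower in L428+MAT than in L428+M, with a median of 0.56. CCL22, a chemokine of Hodgkin cells, averaged 9.21 and 6.51 (2.70 ± 0.17, adjusted p = 7.87e-09), and GBP2, an interferon-induced GTPase, 9.43 and 6.85 (2.58 ± 0.31, adjusted p = 2.72e-05). In L428-PAX5+MAT against L428+MAT, 9 were lower and 1 higher (median -0.72): CCL22 (-2.52 ± 0.17, adjusted p = 5.23e-09) and FCER2, which encodes CD23 (-2.42 ± 0.18, adjusted p = 2.26e-08), fell most, and CD274, which encodes PD-L1, was higher (1.05 ± 0.23, adjusted p = 0.00158). Between L428-PAX5+M and L428+M, 5 rose and 5 fell, IRF1 (1.72 ± 0.15) and CD274 (1.58 ± 0.23) against FOS (-2.02 ± 0.42) and BCL6 (-1.99 ± 0.16). In the Burkitt mean 8 were lower and 5 higher than in L428+M. CCND2, the STAT5-responsive cyclin D2, was lower by 6.47 on the log2 scale (log2 change -6.47 ± 0.15, adjusted p = 1.56e-16), followed by LTA (-3.05 ± 0.16, adjusted p = 6.52e-12). BCL6, which STAT5 represses, was higher (2.24 ± 0.14, adjusted p = 1.50e-10), and so was PIM2 (1.58 ± 0.27, adjusted p = 8.19e-05). The activity of STATs was not tested. No passing gene of the 5 lists changed sign after array medians were subtracted, after quantile normalization or with the block.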

How the data were processed

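The deposited file holds log2 expression values per probe set, 1 column per sample; the submitters' processing notes name RMA and Partek, and versions, order of steps and array build are not given in the sources used here. It has 33297 probe sets with values from 2.24 to 14.64 and array medians of 6.52 to 6.70. The platform annotation gives 1 symbol to 19460 of them, several to 1754 and none to 12083. Probe sets with 1 symbol were used, the brightest on average per gene, which left 18417 genes. No detection calls were used. Levels of different probe sets are not compared.

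Changes were estimated with limma 3.58.1 in R 4.3.3 (lmFit and eBayes, no trend), with 1 mean per group over 18 arrays and 12 residual degrees of freedom. Tests were two-sided with Benjamini-Hochberg adjustment over all 18417 genes of a comparison, and passed below 0.05. The procedure was tested on simulated data. Python 3.11.15, pandas 2.3.3, numpy 2.4.6 and matplotlib 3.10.9 served for tables and plots. The number of arrays limits the precision, and since no label states that replicates came from separate cultures, the p-values reflect only the spread among these samples, possibly technical.

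Replicate numbers are shared by all groups. Deviations from the group means correlated between same-numbered arrays in 18 of 18 pairs of L428 groups (0.273 to 0.655) and 3 of 3 Burkitt pairs (0.325 to 0.541), but in only 17 of 24 pairs between the lineages above 0.1 (lowest -0.014). The numbers were therefore taken, from these correlations and not from the labels, to pair arrays within a lineage, and values with that block are given where it changed a call and in some other places.

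Named are the 7 members, PAX5, the markers, up to 2 rising and 2 falling passing genes with the largest change per list and comparison, and the 3 genes most correlated with each member. Lists cover JAK and STAT genes (9 measured), other brakes (14 of 16), receptor chains (23), cytokines (16 of 18) and reported STAT targets (17 of 18); IL2RA and OSM are in more than 1. The members, lists and rules were chosen with earlier results of these data known. Promoter windows come from a RefSeq table (GRCh38.p14). Alternatives were other scalings, probe set and dim-gene rules, a trended robust spread, fits of the compared groups alone, blocks, and arrays left out.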

Additional observations from a re-analysis of the deposited data

Results flagged for a closer look

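SOCS2 and PTPN1 changed differently under 5-aza-dC and TSA in L428-PAX5 than in L428 by the test of the difference itself. For SOCS2 the change was -0.79 in L428-PAX5 and 0.31 in L428, a difference of -1.09 ± 0.23 on the log2 scale (adjusted p = 0.00334, limma), and all 3 L428-PAX5+MAT arrays lay below all 3 of L428-PAX5+M. For PTPN1 the change was 0.72 in L428-PAX5 and -0.20 in L428, a difference of 0.92 ± 0.20 (adjusted p = 0.00511), with all 3 L428-PAX5+MAT arrays above those of L428-PAX5+M. Both differences kept their direction in the 23 alternatives run; both lost their call when every replicate 1 (SOCS2 adjusted p = 0.0929, PTPN1 0.114) or every replicate 2 (0.0538 and 0.233) was left out. The L428-PAX5+M arrays enter both the PAX5 comparison and this one.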

How the results depend on the processing

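The 7 genes in 9 comparisons gave 63 changes and, under the alternatives, 1134 values, of which 1035 kept direction and call, 28 gained a call, 44 lost one and 27 changed sign; 28 of the 63 changes kept both throughout. Of the 44 calls lost, 23 went when all arrays of 1 number were left out, 18 with 1 array left out and 3 under other settings. Leaving out all arrays of 1 number was added after seeing the data and leaves 12 arrays. No called change turned sign. The block within lineage added the calls given above for SOCS1, PTPN2 and PTPN6, ended none of the 7 genes' calls and changed no other. Signs turned after quantile normalization for PTPN1 between the lines with drugs (L428-PAX5+MAT minus L428+MAT, 0.10) and SOCS1 in the difference between responses (0.11), and for CISH in Raji against Namalwa after either scaling (0.05 each). Across arrays left out, the uncalled changes that turned ranged from -0.22 to 0.10 (PTPN2) and -0.28 to 0.17 (PTPN6) in L428+MAT against L428+M, -0.31 to 0.04 (PTPN1) between the lines with drugs, -0.55 to 0.49 (SOCS1) and -0.15 to 0.19 (SOCS3) in the difference between responses, -0.06 to 0.38 (PTPN6) in Namalwa against L428+M, and -0.07 to 0.25 (SOCS3) and -0.13 to 0.04 (CISH) in Raji against Namalwa. Numbers of genes passing moved with the replicate block within lineage to 4705 in L428-PAX5+M against L428+M (2996 without), 1798 in L428+MAT against L428+M (892) and 5131 in the difference between responses (2990); 1 block over all arrays gave 1592 and 4730 in the last 2, and the compared groups alone 593 in L428+MAT against L428+M. With arrays left out the numbers ranged from 1262 to 3327, 239 to 1090, 2999 to 7315 (L428-PAX5+MAT against L428-PAX5+M), 3283 to 6920 (L428-PAX5+MAT against L428+MAT), 496 to 4295 (difference) and 1959 to 3743 (Raji against Namalwa); the lowest all lack a whole number of replicates. The causes were not tested. Subtracting array medians moved the median change of all genes to 0.16 in Raji against L428+M (0.05 without) and 0.14 in Raji against Namalwa (0.04), and the share higher among passing genes to 60.7% (50.2%) and 53.4% (40.2%); quantile normalization moved it to 48.7% (34.7%) in the difference between responses. Signals near the floor are compressed, which limits SOCS3 and SOCS2 in the Burkitt lines.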
